A study of Mus musculus with 121 samples.

Results

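The mitochondrial ribosomal protein genes of a mouse fibroblast line were followed through high and low glucose and insulin cycles and the free run after them. They were chosen by name, as protein-coding genes whose mouse symbol starts with Mrpl or Mrps and goes on with a number, and by level, as at least 1 CPM (counts on the gene per 1000000 counts on all genes) in at least 3 libraries. Of 78 genes with such a name, 77 passed, 48 named Mrpl and 29 named Mrps, among 13292 genes that passed the same limit and 31053 genes listed. The gene left out was Mrpl53, with 1 count in all libraries together and a highest level of 0.155 CPM.

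The cells were PER2::LUC fibroblasts, which carry a luciferase fused to the clock protein PER2, at passage 25, and all libraries came from this 1 line. HL cells had a high glucose medium with insulin (H) and 12 h later a low glucose medium (L), for 3 cycles of 24 h. LH cells began with L and went on to H, and HH cells had fresh H at each change. After the cycles the cells were left without further change of medium, and RNA was taken in 6 collections 4 h apart, called here 0 to 20 h after the first collection. The titles also hold an hour, which does not run in steps of 4 h. In order of collection it is 20, 12, 4, 8, 12 and 16 in HL and HH. In LH it is 20, 12, 16, 20, 12 and 16. Collections 2 and 5 thus share the hour 12 in each treatment. Times here follow the collection number alone, and the title hours do not bear them out. Libraries were made by 3′DGE, which reads transcripts near their 3′ end, so that counts do not grow with gene length. Levels of genes are set side by side below as counted RNA, which overlapping genes and reads outside features can also shift. Of 62 libraries, HL had 21, LH 22 and HH 19, and a treatment had 2 to 4 in each collection. The study describes its replicates as biological, but the labels do not tie a library to a culture, and p-values measure the spread between these libraries. All 10 fibroblast markers looked at, such as Col1a1, Dcn and Vim, had a median of at least 1 CPM. Of the markers of keratinocytes, endothelium, immune cells, muscle, cartilage and Schwann cells, at most 1 in each list did. Of these, Sox9 (cartilage) had a median of 513 CPM and Kdr (endothelium) of 177 CPM, above the fibroblast markers Thy1 (87.6 CPM) and Pdgfrb (34.4 CPM), while their companions Acan, Col2a1, Pecam1 and Cdh5 had medians under 1 CPM. Ptprc (immune) reached 76.3 CPM in 1 library, from 8 counts in the shallowest one, and at most 4.21 CPM elsewhere. The part of such cells in the results was not tested. In these bulk samples, fewer cells and less RNA per cell cannot be told apart, and CPM is a share of the counted RNA.

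The names of the libraries carried a conflict. A read summary of the study lists library numbers with names, and these differ from the titles for 35 libraries, with 16 titled LH listed as HL and 15 titled HL listed as LH. It lists the title's own name for 22 libraries, among them the whole of HH, and does not list 5. Results below follow the titles, and the main tests are also given by library number, over 57 libraries with 1 in collection 5 of LH. Depth ranged from 104912 to 11619095 counts (median 5825881), and from 323 to 33612 of these (median 17187) were on the 77 genes. A pair of libraries stood apart, both of LH collection 2. Replicate 2 had 104912 counts, while the next lowest library had 2136819, and 11 of the 77 genes had a count of 0 in it, which allows up to 28.6 CPM at 3 counts. Replicate 1 had 4333104 counts and 28 genes below 0.5 of their median level, against 15 in replicate 2 and at most 12 in any library outside this pair.

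Mitochondria have ribosomes of their own, which translate the few proteins encoded in mitochondrial DNA, all of them core subunits of the respiratory chain and ATP synthase. Their rRNAs come from mitochondrial DNA, but every ribosomal protein is encoded in the nucleus, made in the cytosol and imported. The large subunit (Mrpl) forms peptide bonds, and the small subunit (Mrps) binds the mRNA and decodes it. Many of these proteins have a relative in bacteria, while others arose in the mitochondrial lineage. By subunit the 77 genes divide into 50 of the large subunit, 26 of the small and Mrps36, whose product is known as a component of the 2-oxoglutarate dehydrogenase complex. Mrps30 and Mrps18a, in spite of their names, encode proteins of the large subunit. A bacterial relative was assigned to 47 proteins and none to 30.

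The genes are scattered over 17 chromosomes, and their start regions were compared with those of other genes. RefSeq promoters (GRCm38.p6, 250 bases before to 50 after the start) were found for 68 of the 77. They were searched on both strands for letters bound by factors known for nuclear genes of mitochondria, GCGC and TGCGC with any base between them of NRF1, CCGGAAG of ETS factors such as GABP, and AANATGGC of YY1, and for the E-box CACGTG bound by CLOCK and BMAL1. Of the following promoters, the first 3 show an NRF1, an ETS and a YY1 match, in a gene of the ribosomal stalk (Mrpl12), the most abundant large subunit gene (Mrpl34) and the gene of the decoding site (Mrps12). Mrpl37, called between collections of LH below, and Mrpl20, with the smallest JTK_CYCLE P, were picked for these results from the 5 genes with an E-box. Each is the 250 bases before the start, 5′ to 3′ on the strand of the gene, with the match in capitals. In Mrps12 the YY1 letters lie on the other strand and so are printed as their reverse complement.
Mrpl12 (chr11:120484387-120484636, plus strand): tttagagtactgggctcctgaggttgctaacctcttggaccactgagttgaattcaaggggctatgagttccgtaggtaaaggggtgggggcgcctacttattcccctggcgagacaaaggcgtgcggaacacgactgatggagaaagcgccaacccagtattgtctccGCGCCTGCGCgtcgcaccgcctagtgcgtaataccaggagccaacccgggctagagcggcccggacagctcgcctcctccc
Mrpl34 (chr8:71464676-71464925, plus strand): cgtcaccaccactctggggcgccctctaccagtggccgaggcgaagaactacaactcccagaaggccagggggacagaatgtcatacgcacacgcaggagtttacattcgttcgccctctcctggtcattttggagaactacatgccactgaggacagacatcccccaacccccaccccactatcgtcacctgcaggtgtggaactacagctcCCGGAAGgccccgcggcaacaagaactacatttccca
Mrps12 (chr7:28741822-28742071, minus strand): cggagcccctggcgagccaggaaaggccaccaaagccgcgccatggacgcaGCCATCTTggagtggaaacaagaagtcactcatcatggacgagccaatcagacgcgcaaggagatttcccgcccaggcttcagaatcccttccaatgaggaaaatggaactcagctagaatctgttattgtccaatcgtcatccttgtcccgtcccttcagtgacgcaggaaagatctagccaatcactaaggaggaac
Mrpl37 (chr4:107066867-107067116, minus strand): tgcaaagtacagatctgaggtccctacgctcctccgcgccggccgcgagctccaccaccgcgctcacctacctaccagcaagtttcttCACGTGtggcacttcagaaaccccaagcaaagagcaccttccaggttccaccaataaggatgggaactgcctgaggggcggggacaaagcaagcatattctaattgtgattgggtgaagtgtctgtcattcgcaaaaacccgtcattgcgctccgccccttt
Mrpl20 (chr4:155802628-155802877, plus strand): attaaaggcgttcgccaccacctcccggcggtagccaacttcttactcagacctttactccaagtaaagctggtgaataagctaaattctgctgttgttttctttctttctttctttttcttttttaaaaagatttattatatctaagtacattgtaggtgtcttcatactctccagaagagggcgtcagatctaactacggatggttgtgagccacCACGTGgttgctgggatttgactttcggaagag

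The YY1 letters were in 21 of the 68 promoters (30.9%), against 8.93% of the promoters of 9824 protein-coding genes tested. In 14 of these 21 genes they lay only after the start, that is in transcribed sequence, and in 7 at least 1 match was wholly before it. The ETS letters were in 23 (33.8%, against 18.5%) and those of NRF1 in 13 (19.1%, against 10.7%). The E-box was in 5 (7.35%, against 10.1%), each time before the start. Of these 5 genes, Mrpl2, Mrpl36, Mrps18c and Mrpl20 had adjusted p-values of 0.795, 0.442, 0.71 and 0.0643 between the collections of LH by edgeR, and only Mrpl37 passed. At least 2 of the NRF1, ETS and YY1 motifs were in 13 promoters (19.1%, against 4.98%), and at least 1 of the 4 motifs in 46 (67.6%, against 39.1%). Matches of different motifs did not overlap in any of the 68. Median GC content was 58.2%, against 61% over the genes tested. These shares are descriptions of letters in a window, and no factor was measured.

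Many of the genes start back to back with another. A protein-coding gene on the opposite strand started within 1 kb in 33 of 77 (42.9%), against 2058 of 12517 protein-coding genes tested (16.4%). Mrps12 starts 172 bases from Sars2, the mitochondrial seryl-tRNA synthetase, and Mrpl37 120 bases from Cyb5rl. Mrps11 and Mrpl46, one of each subunit, start on opposite strands with their first 412 bases overlapping. Of the 77 genes, 20 (26%) share exon bases with a protein-coding gene on the opposite strand. The use of strand in counting is not given in the sources used here, so that reads of such a pair may not be told apart.

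Most of the 77 genes were expressed at moderate levels. The median gene had a mean of 28.6 CPM over 62 libraries, the interquartile range was 16.6 to 55.2 CPM, and 67 of 77 lay between 10 and 100 CPM. Large subunit genes had a median of 31.5 CPM and small subunit genes of 22.5 CPM. Together the genes made up 2981 CPM, with 1938 CPM from the large and 1042 CPM from the small subunit. The median was 30.2 CPM for genes with a bacterial relative and 28.0 CPM for those without.

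**Figure D1:**
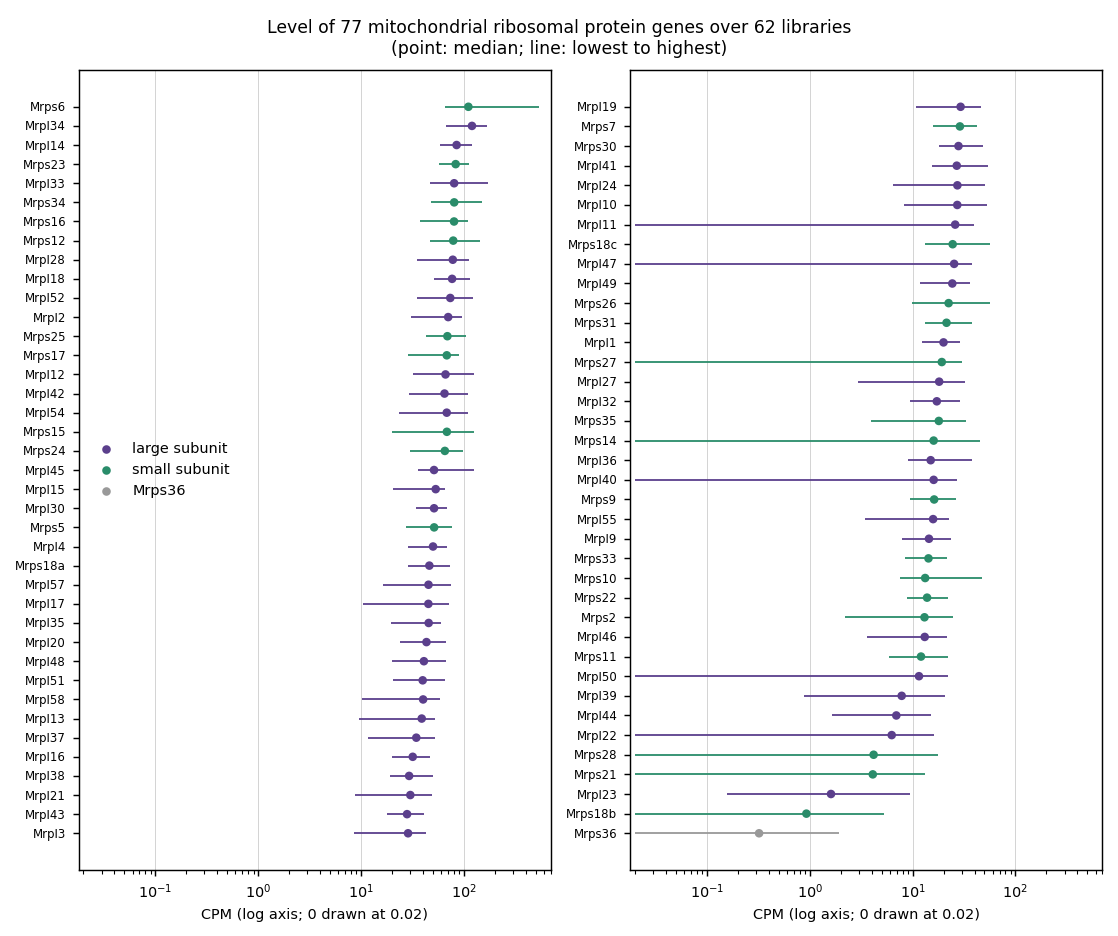
Level of the 77 genes over 62 libraries, in CPM on a log axis, as median (point) and lowest to highest library (line), ordered by mean, with the large subunit in purple, the small in green and Mrps36 in grey. Most medians lie between 10 and 100 CPM, Mrps6 has the longest upper tail, to 532 CPM in LH collection 2 replicate 1, and the genes at the bottom of the right panel reach 0.

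The highest mean was that of Mrps6, a small subunit protein, at 156 CPM, with a median of 110 CPM and a range of 65.2 to 532 CPM, the highest value coming from LH collection 2 replicate 1, which stood apart above. Next were Mrpl34 at 119 CPM, Mrpl14 at 84.1 CPM, Mrps23 at 82.7 CPM and Mrpl33 at 81.8 CPM. At the other end, Mrps36 had 0.434 CPM and a count of 0 in 14 libraries, and Mrps18b had 1.12 CPM and a count of 0 in 10. Mrpl23 (1.84 CPM), Mrps21 (4.29 CPM) and Mrps28 (4.49 CPM) completed the lowest 5. Subunits that occur together in 1 particle thus differed widely in counted RNA. Mrpl12, which forms the stalk where translation factors dock, had 66.8 CPM, and its partners at the stalk base, Mrpl10 and Mrpl11, had 26.7 and 26.1 CPM. The decoding site protein Mrps12 had 78.9 CPM, and Mrps18a and Mrps30 had 47.3 and 28.4 CPM.

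The sum over the genes was 2981 ± 214.9 CPM (SD, n = 62), with a lowest library at 2439, a median of 3002 and a highest at 3442 CPM, a coefficient of variation of 7.21%. By treatment it was 3020 ± 147.2 CPM in HL (n = 21), 2971 ± 258.3 in LH (n = 22) and 2950 ± 227.4 in HH (n = 19), so that treatments differed by less than 1 SD. By number the sums were 3008 ± 219.7, 2952 ± 208.1 and 2950 ± 227.4 CPM (n = 19 each). The coefficient of variation of the sum was 9.85% for 76 nuclear respiratory chain genes, 13.2% for 77 cytosolic ribosomal protein genes and 22.6% for the protein genes of mitochondrial DNA. It was 9.01% for the large and 9.47% for the small subunit alone. These values are set side by side as descriptions, and their difference was not tested. By collection, the member sum of HL was lowest at 20 h (2861 ± 122.5 CPM, n = 4) and highest at 8 h (3207 ± 45.11, n = 3). In LH it was lowest at 0 h (2847 ± 122.6, n = 3) and highest at 12 h (3121 ± 227.6, n = 4), and in HH it was lowest at 4 h (2752 ± 230.4, n = 3) and highest at 0 h (3138 ± 108.7, n = 4). The widest spread of the sum was at 4 h in LH, the collection of the pair that stood apart, where it had a coefficient of variation of 16.4% and the large subunit ran from 1268 to 2360 CPM. The 1268 CPM came from replicate 1 and the 2360 CPM from replicate 4, which is outside the pair. Replicate 4 had 2136819 counts, the lowest depth after replicate 2. It also had 35989 CPM over the protein genes of mitochondrial DNA, the highest of the 62 libraries.

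**Figure D2:**
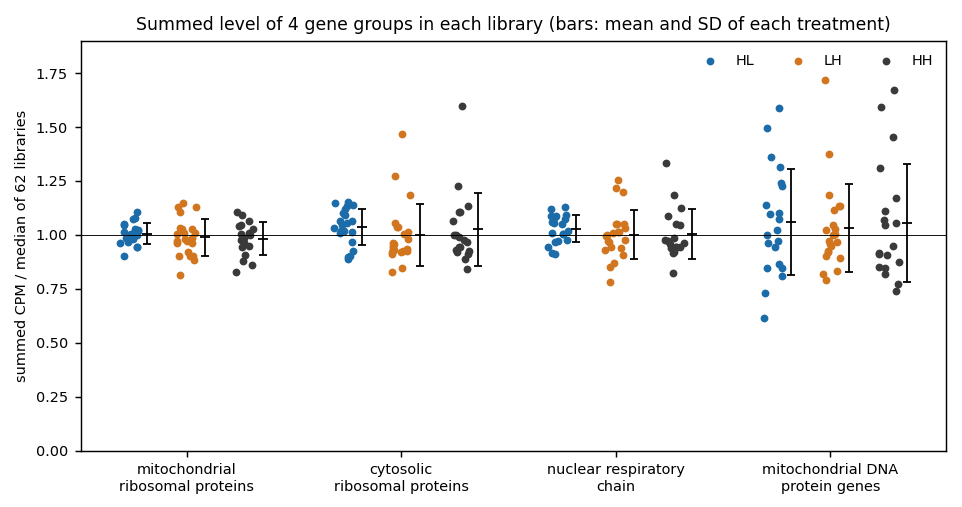
Summed CPM of 4 gene groups in each of 62 libraries, divided by the median over all libraries, with HL in blue, LH in orange and HH in dark grey, and black bars for mean and SD of each treatment. The mitochondrial ribosomal protein genes lie closest to 1 and the protein genes of mitochondrial DNA spread most, with coefficients of variation of 7.21% and 22.6%.

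The spread of single genes was close to that of other genes. Beyond counting error, the median coefficient of variation within groups of 1 treatment and collection was 19.4% over the 77 genes, and 19.0% over the 72 with a mean of 5 to 160 CPM, against 22.2% over 8302 genes tested in that range, a difference that was not tested. The lowest values beyond counting error were those of Mrpl20 (10.9%), Mrps17 (11.3%), Mrps25 (11.5%), Mrpl18 (11.6%) and Mrpl34 (11.8%), named after their values were seen. Of the 72, Mrps6 alone exceeded 50%.

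The first question was whether the order or the presence of glucose and insulin steps set the mean level of the genes over the free run. LH had 2 of the 77 genes lower than HL and none higher, by a quasi-likelihood test with P below 0.01 over treatments and below 0.05 in the comparison, thresholds not adjusted over genes. By these thresholds 1.16% of all genes tested were called. HH also had 2 genes lower than HL and none higher (1.2% of all genes), and LH against HH had none in either direction (0.91%). Both comparisons named the same 2 genes, Mrps12 and Mrpl16, and they share the HL libraries.

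Mrps12, the small subunit protein of the decoding site, had 83.2 ± 15.5 CPM in HL (lowest 58.5, median 83.5, highest 118), 75.5 ± 19.7 in LH (46.2, 71.5, 143) and 78.0 ± 11.4 in HH (52.1, 80.0, 97.1). The ranges of the 3 treatments overlapped, and the highest value in LH came from the library of 104912 counts. The log2 fold change was -0.24 ± 0.08 (SE) for LH (n = 22) against HL (n = 21), with p = 0.00223 and an adjusted p of 0.492 by edgeR, and -0.17 ± 0.08 for HH against HL (p = 0.0336, adjusted p = 0.643). By library number the difference between LH and HL turned to 0.12 (adjusted p = 0.731), and that between HH and HL shrank to -0.003146 (adjusted p = 0.999).

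Mrpl16, a large subunit protein near the peptide-forming centre, had 35.0 ± 6.04 CPM in HL (23.7, 35.5, 46.2), 32.04 ± 6.08 in LH (20.1, 31.3, 41.7) and 31.2 ± 3.85 in HH (26.1, 30.6, 38.3), again with overlapping ranges. Its log2 fold change was -0.16 ± 0.07 for LH against HL (n = 22 and 21, p = 0.0259, adjusted p = 0.799) and -0.22 ± 0.07 for HH against HL (p = 0.00382, adjusted p = 0.474). By library number it was 0.06 for LH against HL (adjusted p = 0.91) and -0.10 for HH against HL (adjusted p = 0.999). The genes thus did not pass adjustment over all genes, and for LH against HL their direction followed the choice of names. The same thresholds by number called 0 of the 77 in each comparison, where 1.34%, 0.568% and 1.63% of all genes were called for LH against HL, HH against HL and LH against HH.

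In LH (n = 22) against HH (n = 19), the smallest p-values were those of Mrpl21 (-0.27, p = 0.0166), Mrpl48 (-0.16, p = 0.0386) and Mrpl46 (0.25, p = 0.0509), all large subunit genes, and none passed. At an unadjusted p below 0.05 in the comparison alone, 8 genes were lower and none higher in LH than in HL (5.69% of all genes), 11 were lower and none higher in HH than in HL (7.42%), and 2 were lower and none higher in LH than in HH (5.23%). By number these counts were 0 lower and 2 higher, 1 lower and 0 higher, and 2 lower and 6 higher, where 7.63%, 3.62% and 10.2% of all genes passed in either direction.

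By titles, more of the genes lay below 0 than above it in LH and in HH against HL. The median log2 fold change was -0.0574 for LH against HL, with 55 of 77 below 0 (71.4%, against 49.7% of all genes), and -0.0583 for HH against HL, with 50 below 0 (64.9%, against 49.5%). For LH against HH it was -0.0132, with 43 below 0 (55.8%, against 50.1%). Over all genes tested the medians were 0.00133, 0.00232 and -0.000241. The genes share libraries and are not independent of each other, so that no p-value is given for these counts. By number the medians were -0.0181, -0.02 and -0.000235, with 44, 50 and 39 of 77 below 0 (57.1%, 64.9% and 50.6%, against 49.2%, 49.8% and 50% of all genes), and for LH against HL 13 of 26 in the small subunit. Genes of the large subunit had medians of -0.0522, -0.058 and -0.00963, and genes of the small subunit of -0.0501, -0.0686 and -0.0171, in the same order of comparisons. The mitochondria-specific genes had -0.08, -0.0918 and 0.00465, and those with a bacterial relative -0.0469, -0.0403 and -0.0169. Medians of the nuclear respiratory chain genes were -0.0755, -0.073 and 0.00792, and of the cytosolic ribosomal protein genes -0.0561, -0.0184 and -0.0352. Several of these medians moved or turned by number. They became -0.0298, -0.0326 and -0.00359 in the large and 0.000124, -0.0119 and 0.0129 in the small subunit. Mitochondria-specific genes had -0.00434, -0.0209 and 0.0104, and genes with a bacterial relative -0.0341, -0.02 and -0.00132. Nuclear respiratory chain genes had -0.0134, -0.0369 and 0.0318, and cytosolic ribosomal protein genes 0.00519, 0.0326 and -0.0207.

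**Figure D3:**
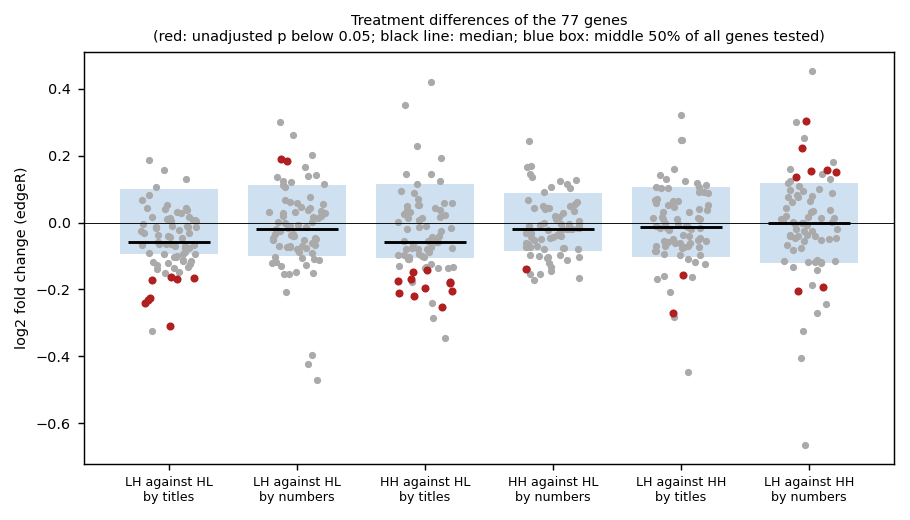
Fitted log2 fold changes of the 77 genes in 3 comparisons, by titles and by library numbers. Each point is a gene, red where the unadjusted p was below 0.05, with the median as a black line and the interquartile range of all genes tested as a blue box. Medians by titles are -0.0574, -0.0583 and -0.0132, and all lie inside the blue boxes.

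The second question was whether the genes kept a daily rhythm in the free run. JTK_CYCLE, which asks by ranks for a curve of 24 h, called 0 of the 77 genes at P below 0.01 in HL, 0 in LH and 0 in HH, where it called 0.466%, 0.888% and 1.24% of all genes. At P below 0.05 it called 5, 3 and 1 (1.9%, 3.24% and 3.71% of all genes). None passed after adjustment over all genes. The smallest exact P in HL was that of Mrps17, a small subunit gene (0.0193, peak at 10 h), then Mrpl50 (0.0265) and Mrpl18 (0.0338). In LH it was that of Mrpl20 (0.01002, peak at 10 h, amplitude 6.8 CPM), then Mrpl57 (0.0212) and Mrps17 (0.0498). In HH it was that of Mrpl33 (0.0408, peak at 22 h), then Mrpl21 (0.137) and Mrps28 (0.15).

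By library number 5 genes passed in HL (1.06% of all genes) and none in LH or HH (1.36% and 1.25%). These were Mrpl20 (exact P = 0.00114), Mrpl57 (0.00143), Mrpl37 (0.00367), Mrps33 (0.0051) and Mrps24 (0.00525), named after their values were seen. None passed adjustment over all genes, with adjusted values of 0.358 to 0.722. Most of the libraries behind this HL series are titled LH.

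A test of any difference between collections, with an adjusted p below 0.05 by edgeR, found 0 of the 77 for HL, 1 for LH and 0 for HH, against 0.301%, 2.93% and 0.293% of all genes. At an unadjusted p below 0.05 the counts were 4, 13 and 6, or 5.19%, 16.9% and 7.79% of the 77, against 8.98%, 16.9% and 8.61% of all genes. DESeq2 called 0, 2 and 0 at an adjusted p below 0.05, and 0.775%, 5.24% and 1.01% of all genes. In the cytosolic ribosomal protein genes the unadjusted test counted 0, 15 and 43 of 77, and by number 9, 11 and 53. The 77 genes counted 4, 17 and 6 by number (5.19%, 22.1% and 7.79%, against 5.49%, 14.3% and 10.5% of all genes). In HH by titles 43 cytosolic genes thus stood against 6 mitochondrial ones, a difference that was not tested. The cytosolic genes had a far higher summed level (52600 against 2981 CPM) and so more counts to test, which leaves these numbers unlike.

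The gene called in LH was Mrpl37, a large subunit protein without a bacterial relative (adjusted p = 0.0191). At 0 h its libraries had 24.2, 30.6 and 31.0 CPM, at 4 h 11.8, 38.1 and 23.9, and at 8 h 44.4, 46.6, 36.9 and 45.9. From 12 h on, 12 libraries lay between 27.6 and 36.9 CPM. The mean was thus highest at 8 h, where 3 of 4 libraries lay above all others. The value of 38.1 CPM is 4 counts in the library of 104912 counts, and the value of 11.8 CPM came from replicate 1 of collection 2, the library with many genes below 0.5 of their median. Without that library the adjusted p was 0.265, and the count of LH over all genes fell from 390 to 66. In HL Mrpl37 ranged from 26.5 to 51.0 CPM and in HH from 24.6 to 52.6 CPM, with no collection apart from the rest. By number, 1 gene passed in HL (Mrpl20, adjusted p = 0.0392, with 0.394% of all genes), 2 in LH (Mrpl3, 0.0339, and Mrpl41, 0.037, with 1.05%) and 0 in HH (0.803%). Collection 5 of LH by number is 1 library, assumed to vary like the others, with 8.55 CPM of Mrpl3 and 54.3 CPM of Mrpl41. In the other 5 collections the means were 22.6 to 30.6 CPM for Mrpl3 and 23.0 to 30.5 CPM for Mrpl41, and these calls have no replicate check in that collection.

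Whether rhythms differed among the treatments was tested in 1 model that gave each its own 24 h curve. It called 0 of the 77 genes at an adjusted p below 0.05 (0.15% of all genes). At an unadjusted p below 0.05 it counted 10 (13.0%, against 10.5% of all genes), 7 of the large and 3 of the small subunit, and these 10 had a bacterial relative. By number it counted 9 (11.7%, against 5.63% of all genes), 7 with a bacterial relative and 2 without. By titles the smallest p-values were those of Mrpl20 (0.00345, adjusted 0.236), Mrpl4 (0.0104) and Mrpl14 (0.0116), and by number those of Mrpl33 (0.0129) and Mrpl20 (0.0137). The unadjusted count was 42 of 77 in cytosolic ribosomal protein genes and 21 of 76 in nuclear respiratory chain genes, both counted at higher levels than the 77 genes. DESeq2 called 0 of the 77 as well, and 39 of all 13292 genes. By number the test called 0 too, with 0.00758% of all genes called.

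Mrpl20, a large subunit protein with a bacterial relative, had the smallest spread within groups beyond counting error and the smallest JTK_CYCLE P by titles. In LH its libraries had 29.3, 37.0 and 44.6 CPM at 0 h, 40.2, 66.7 and 43.5 at 4 h, and 48.1, 53.4, 42.0 and 50.5 at 8 h. They had 49.5, 58.8, 50.2 and 49.1 CPM at 12 h, 41.9, 52.9, 46.8 and 41.7 at 16 h, and 47.4, 26.6, 23.8 and 32.5 at 20 h. The value of 66.7 CPM is 7 counts in the library of 104912 counts, and without it the other 4 h libraries had 40.2 and 43.5 CPM. The mean was highest at 12 h (51.9 CPM), and at 20 h 3 of 4 libraries were low. In HL the means stayed between 39.3 and 47.4 CPM, and in HH between 36.9 CPM at 4 h and 50.6 CPM at 0 h. By number the 3 low libraries (26.6, 23.8 and 32.5 CPM) make up collection 6 of HL, and the library of 47.4 CPM falls into collection 5, so that the last collection of HL stands below the range of 41.7 to 58.8 CPM in the other 5.

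**Figure D4:**
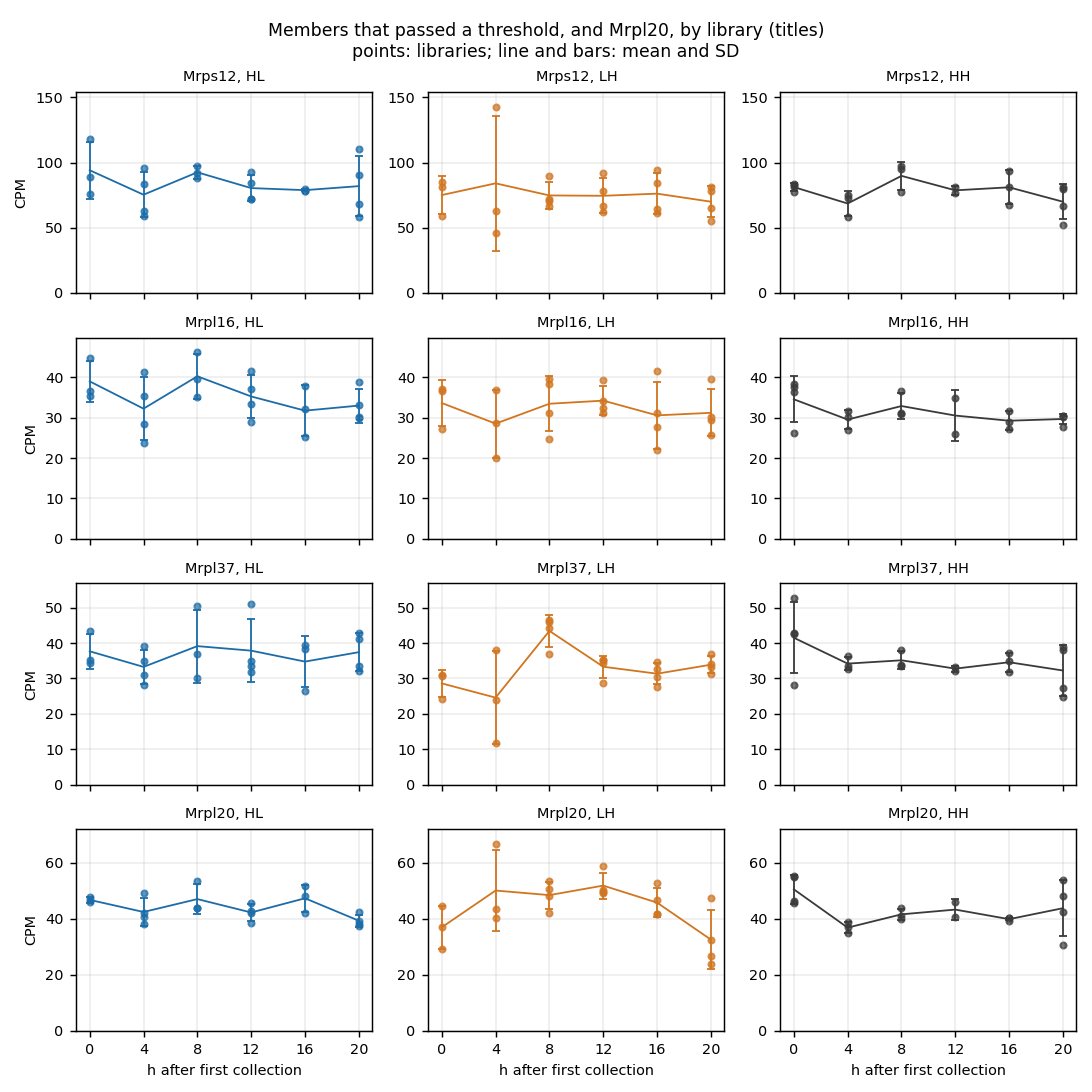
CPM of Mrps12, Mrpl16, Mrpl37 and Mrpl20 against hours after the first collection, in HL, LH and HH by titles, with a point for each library and lines and bars for mean and SD. Mrpl37 in LH is highest at 8 h (36.9 to 46.6 CPM), and Mrpl20 in LH falls to 23.8 to 32.5 CPM in 3 of 4 libraries at 20 h.

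Mrps6 varied more between libraries of a group than the other mitochondrial ribosomal protein genes in the same range of level. Its coefficient of variation within groups was 65.6%, where the median over the 72 genes with a mean of 5 to 160 CPM was 20.4%. In LH at 4 h its libraries had 532, 181 and 110 CPM, the first being LH collection 2 replicate 1, which stood apart, and at 12 h 111, 239.4, 116 and 91.3 CPM. In HL at 16 h they had 87.7, 438 and 136 CPM, so that libraries of 1 treatment and collection differed several-fold. In HH the libraries numbered replicate 4 had 148, 219, 244, 285 and 274.6 CPM at 0, 4, 8, 12 and 20 h, each the highest of its collection, and the other HH libraries had 65.1 to 158 CPM. No treatment difference (n = 21, n = 22 and n = 19 for HL, LH and HH) passed, with log2 fold changes of -0.02 ± 0.23 (LH against HL, p = 0.924), -0.34 ± 0.25 (HH against HL, p = 0.169) and 0.32 ± 0.24 (LH against HH, p = 0.191). Without the HH libraries numbered replicate 4, Mrps6 was called in HH against HL and in LH against HH. In that setting 2.43% and 2.06% of all genes were called, against 1.2% and 0.91% with all libraries, and 0 genes passed adjustment.

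Mrps6 (chr16:92058270-92112227, plus strand, GRCm38) shares 159 exon bases with Slc5a3, the sodium and myo-inositol transporter, which lies on the same strand and was counted at a mean of 286 CPM. Slc5a3 was also high in many of the libraries high in Mrps6, with exceptions. In HH its libraries numbered replicate 4 had 279.4, 432, 531, 558 and 576 CPM, and the others had 129 to 309 CPM, a range that holds the first of these values. In LH at 12 h Slc5a3 had 253.3, 547, 284 and 195 CPM, with its highest value in the library where Mrps6 was highest. The library with 532 CPM of Mrps6, LH collection 2 replicate 1, had 324 CPM of Slc5a3. Which reads of the pair came from which gene was not tested. Mrps24 and Urgcp, and Mrps34 and Nme3, also share exon bases on 1 strand.

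**Figure D5:**
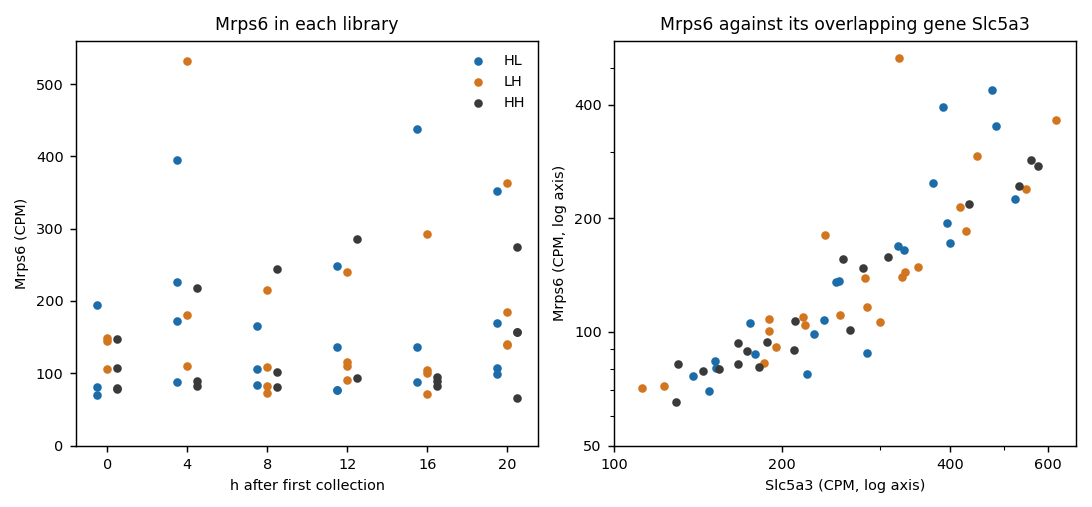
Left, Mrps6 in CPM for each library against hours after the first collection, with HL in blue, LH in orange and HH in dark grey. Right, Mrps6 against the overlapping gene Slc5a3, both in CPM on log axes, where libraries high in one are mostly high in the other and LH collection 2 replicate 1, at 532 CPM of Mrps6, stands above the rest.

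The other genes of mitochondrial translation were taken from hand-made lists of 71 genes, all of which were tested. They hold 5 mitoribosome subunits with other names, 15 translation factors, 17 mitochondrial aminoacyl-tRNA synthetases, 21 assembly factors, 4 genes of mitochondrial transcription and 9 regulators of mitochondrial biogenesis. In the 3 level comparisons 0 of 71 were called in either direction by edgeR (1.16%, 1.2% and 0.91% of all genes for LH against HL, HH against HL and LH against HH). Medians for LH against HL ran from -0.0455 in the assembly factors to 0.0619 in the transcription genes. For HH against HL they ran from -0.0737 in the subunits with other names to 0.242 in the transcription genes.

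The smallest p-values for LH (n = 22) against HL (n = 21) were those of the rRNA methyltransferase Mrm1 (0.37 ± 0.13, p = 0.00567) and the assembly GTPase Noa1 (0.26, p = 0.0163). For HH (n = 19) against HL (n = 21) they were those of the leucyl-tRNA synthetase Lars2 (0.32, p = 0.0104) and the transcription elongation factor Tefm (0.70, p = 0.0219). For LH (n = 22) against HH (n = 19) they were those of the phenylalanyl-tRNA synthetase Fars2 (0.23, p = 0.024) and of Gabpa (-0.28, p = 0.043), the ETS subunit of GABP. JTK_CYCLE called Gadd45gip1, a large subunit protein also known as MRPL59, in HL (exact P = 0.00932, peak at 8 h, amplitude 10.4 CPM), with the same peak just over the threshold in HH (exact P = 0.0111), and none of the lists in LH or HH (0.466%, 0.888% and 1.24% of all genes). Collections differed for the alanyl-tRNA synthetase Aars2 in LH (adjusted p = 0.0494 by edgeR, with 2.93% of all genes called), and for none of the 71 in HL or HH (0.301% and 0.293%). The test of rhythm difference called none of them (0.15% of all genes). By number 1 of the 71 was called in 1 of these tests, the small subunit gene Aurkaip1 by JTK_CYCLE in HL (1.06% of all genes), and Gadd45gip1 and Aars2 were not.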

How the data were processed

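RNA of 1 PER2::LUC fibroblast line was sequenced by 3′DGE. Per the submitters' processing notes, bcl2fastq, STAR 2.6.0a, HTSeq 0.9.1 and mm10 were used. Neither the annotation release nor the strand setting of counting is given in the sources used here. The authors deposited counts of reads per gene without normalization, 121 sets from 62 libraries, 1 for each sequencing run, and 59 libraries had 2 runs, which were summed here. Rows without a gene were not used, and reads outside features were 18.4% to 29.1% of a run. Treatment, collection and replicate came from the titles.

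CPM was computed over the counts on genes. The 13292 genes that reached 1 CPM in 3 or more libraries were tested with edgeR 4.0.16 (R 4.3.3; quasi-likelihood, TMM scaling, collection as a term for levels, P values over all genes with Benjamini-Hochberg adjustment) and with JTK_CYCLE, rewritten with its exact null distribution, two-sided, a period of 24 h and phases in steps of 2 h. The JTK_CYCLE P values were adjusted over phases by Bonferroni. DESeq2 1.42.0 was an alternative. The tests were first tested on simulated data. Positions came from the GRCm38 annotation and promoters from RefSeq. The assignment of a bacterial relative and the gene lists were set by hand.

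The 77 genes and the lists were chosen with earlier results of these data known. Named are genes past a threshold (the 3 with the smallest P where there were none), the 5 highest and 5 lowest, genes of known role and, of the lists, those called or the 2 with the smallest P. Names outside this rule carry a remark in the text. The alternatives were library numbers, 1 run alone, other filters, other scaling, DESeq2, adjustment over genes, a cosinor, no term for collection, a replicate block and leaving out libraries. Leaving out LH collection 2 replicate 1 was added after the data were seen. Depth limits low genes, since 3 counts are 28.6 CPM in the shallowest library, and such limits cover counting error only.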

Additional observations from a re-analysis of the deposited data

Results flagged for a closer look

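In groups of 4 libraries, 72 in all over the sums and the genes looked at, 9 held a library far from the other 3 by Dixon's test, which flags about 1 in 20 groups by chance. In LH collection 6, replicate 1 had 3389 CPM summed over the 77 genes, against 2649 to 2711 in the others, and 2130 CPM over the large subunit, against 1699 to 1731. By library number that library belongs to HL collection 5. Mrps6 was high in replicate 2 of LH collection 4 (239.4 CPM, others 91.3 to 116) and in replicate 2 of LH collection 5 (293.03 CPM, others 71.2 to 105). Mrpl16 was low in replicate 4 of HH collection 1 (26.2 CPM, others 36.3 to 38.3) and in replicate 2 of HH collection 6 (27.8 CPM, others 30.1 to 30.6). Mrpl37 had 51.0 CPM in replicate 1 of HL collection 4 (others 31.9 to 35.0) and 28.6 CPM in replicate 3 of LH collection 4 (others 34.3 to 35.2). Mrpl20 had 58.8 CPM in replicate 2 of LH collection 4 (others 49.1 to 50.2).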

How the results depend on the processing

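The counts of called genes, 2 for LH against HL and 2 for HH against HL, are given here with the shares of all genes. They became 0 and 0 by library number (1.34% and 0.568%) and with the second run alone (0.913% and 0.973%). The same held without a term for collection (0.993% and 1.29%), with a replicate block (1.04% and 0.978%) and after adjustment over genes, which called 0 of all genes. They became 1 and 1 with the first run alone (1.32% and 1.37%) and without libraries under 1000000 counts (1.13% and 1.16%). They also became 1 and 1 without LH collection 2 replicate 1 (1.48% and 1.49%) and with DESeq2's size factors (1.15% and 1.2%), no filter on low counts (1.87% and 1.92%) and DESeq2 (1.26% and 1.22%). Mrps12 was called in 12 of 24 alternatives for LH against HL and in 11 of 24 for HH against HL, and Mrpl16 in 3 of 24 each. By number both reversed for LH against HL, Mrps12 to 0.116 and Mrpl16 to 0.0599. Leaving out 1 replicate number of a treatment gave counts of 0 to 2 for LH against HL, 0 to 2 for HH against HL and 0 to 1 for LH against HH. The shares of all genes then ran from 0.665% to 1.64%, from 0.689% to 2.43% and from 0.538% to 2.06%. Over all alternatives the median log2 fold change was -0.0699 to -0.0181 for LH against HL, -0.0807 to -0.02 for HH against HL and -0.0291 to 0.0181 for LH against HH. With a replicate left out the ranges were -0.0636 to -0.036, -0.0807 to -0.0412 and -0.0291 to 0.0181. The cause was not tested.

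The count over collections, 0 in HL, 1 in LH and 0 in HH, became 1, 2 and 0 by number. With no filter it became 1, 2 and 1, and Mrps6 was among them in each treatment (3.08%, 6.05% and 2.4% of all genes). In LH it became 4 with the second run alone (7.11% of all genes were called) and 0 without LH collection 2 replicate 1 (0.498%). It became 2 at a limit of 5 CPM (4.14%) and 2 with DESeq2 (5.24%). With a replicate left out it ran from 1 to 3 in LH, where 0.349% to 5.35% of all genes were called. In HL and HH it then stayed at 0 (0.0454% to 0.659% and 0.0303% to 0.371%). Mrpl37 was called in 16 of 22 alternatives, and with a replicate left out its adjusted p was 0.0135 to 0.465, above the threshold without LH replicate 1 (0.465) and without LH replicate 4 (0.0659). The JTK_CYCLE counts, 0 in each treatment, became 5 in HL by number (1.06% of all genes). In HL they became 1 with the first run alone (0.388%) and 1 with the second (0.277%). In LH they became 1 without libraries under 1000000 counts (0.942%), without LH collection 2 replicate 1 (1.19%) and on TMM-scaled CPM (0.948%). A cosinor gave 1, 3 and 2 (1.12%, 3.27% and 2.87% of all genes). With a replicate left out the JTK_CYCLE counts were 0 in HL, 0 to 2 in LH and 0 to 1 in HH. The shares of all genes were then 0.227% to 0.598%, 0.516% to 0.894% and 0.408% to 1.25%. Rhythm difference stayed at 0 in each alternative run, while calls over all genes ran from 1 of 13198 by number to 295 of 20731 with no filter.

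Nothing in the labels pairs libraries by replicate number, and they were not treated as paired. Deviations from group means had a median correlation of -0.00065 over 438 pairs with the same number and 0.000233 over 1315 pairs with different numbers. These medians do not show that no set of libraries stands together. Without the HH libraries numbered replicate 4, which were high in Mrps6 and Slc5a3, the calls over all genes rose from 160 to 322 for HH against HL, and also rose for LH against HH. With a replicate block the level counts were 0 and 0 for LH and HH against HL (1.04% and 0.978% of all genes), and the collections of LH counted 2 (3.14%). Depth limits the lowest genes, Mrps36 and Mrps18b, most.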
